A study of Mus musculus with 2 samples.

Results

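Integrins are receptors made of an alpha and a beta subunit that span the cell membrane and hold a cell to its surroundings, and laminins are 3-chain proteins that form the sheet of basement membrane under or around cells. The set comprised every mouse gene whose symbol names an integrin alpha or beta subunit or a laminin alpha, beta or gamma chain. Genes for proteins that only bind integrin tails, such as Itgb1bp1, were left out. Symbols were assigned by Entrez identifier from a RefSeq gene table, and 38 genes met the rule. They were 9 leukocyte integrins, 18 matrix-binding integrins and 11 laminin chains, of which 35 are among the 16174 genes listed in either library. Itga2, Itgb2l and Itgb6 were listed in neither. Whether a gene met the rule depended on its symbol alone. The members and lists were, however, chosen with earlier results of these data known.

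The data are RNA sequencing of brown fat, a depot that makes heat, taken from chow-fed C57BL/6 mice aged 45 weeks, female according to the series title. The control library was labelled D3Bfl/fl, with both alleles floxed and no Cre named. The knockout library was labelled D3Bfl/fl-UCP1-Cre+/-, with the same floxed alleles and a Cre transgene on the promoter of Ucp1, which is active in brown adipocytes. D3B is read here as Dnmt3b, a DNA methyltransferase that adds methyl groups at CpG sites. Leukocytes, vessels and fibroblasts of the depot are not known to express Ucp1. How many mice went into a library, and whether they were pooled, is not in the labels. With 1 library per group the spread between mice is unknown, and neither a test between genotypes nor a p-value can be given. The libraries ran on lanes 2 (control) and 1 (knockout), so lane, Cre and loss of the allele cannot be told apart.

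The libraries held 9666528 and 10068359 expected counts. Levels are given as FPKM, fragments per kilobase of transcript scaled to library size, always control first and knockout second. Ucp1 was at 4987 and 4271 FPKM. Dnmt3b itself was at 15 and 7 counts, and its ratio of 0.462 had an interval of 0.155 to 1.17, so a lower level was not detectable at this depth. Each interval below is a 95% interval of the knockout to control ratio for counting error alone. It describes these 2 libraries, not the genotypes. A value given relative to another gene is the ratio of a gene divided by the ratio of that other gene. A gene was counted as higher or lower when its level reached 1 FPKM in a library, its ratio of FPKM + 1 was at least 1.5-fold from 1, and its interval excluded 1.

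Leukocyte integrins carry white blood cells out of vessels and into tissues. Itgb2 encodes the beta 2 subunit, which pairs with the alpha subunits of Itgal, Itgam, Itgax and Itgad and binds ICAM proteins, complement fragments and fibrinogen. Itga4 and Itgae pair with Itgb7, and Itga4 also pairs with Itgb1. Matrix-binding integrins mostly use Itgb1, and their alpha subunits decide whether laminin, collagen or RGD-bearing proteins such as fibronectin are bound. Each laminin is a trimer of 1 alpha, 1 beta and 1 gamma chain, joined to collagen IV by nidogen. In fat, every adipocyte is wrapped in such a basement membrane.

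The sequence that matters most for reading the values below is the one that Itgad and Itgax have in common, since reads from it cannot be given to either gene. The longest identical run in their coding sequences, from GENCODE M21 transcripts, is 188 bases long. It spans coding positions 1222 to 1409 of Itgad and 1201 to 1388 of Itgax, counted from the A of the start codon.
Itgad and Itgax: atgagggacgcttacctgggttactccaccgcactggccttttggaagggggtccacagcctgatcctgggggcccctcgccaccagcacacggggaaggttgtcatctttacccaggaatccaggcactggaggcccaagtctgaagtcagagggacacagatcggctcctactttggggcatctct
Of all distinct runs of 50 bases in Itgad transcripts 8.43% also occur in Itgax, and of runs of 100 bases 3.17%. No run of 50 bases was shared by Itgad or Itgax with Itgam or Itgal, nor by Itgam with Itgal.

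Upstream sequence is shown for Itgam and Itgax, neighbouring genes that were both higher in the knockout library, and for Itgb7, Itgb5 and Lamb1, whose knockout to control ratios were between 0.973 and 1.14. Each is the 250 bases before the transcription start on the strand of the gene, which is minus for Itgb7 and plus for the others, from RefSeq promoters on GRCm38.p6. The regions are chr7:128062390-128062639 (Itgam), chr7:128129300-128129549 (Itgax), chr15:102231936-102232185 (Itgb7), chr16:33829415-33829664 (Itgb5) and chr12:31265043-31265292 (Lamb1). Capitals mark CG, the dinucleotide that DNA methyltransferases act on.
Itgam: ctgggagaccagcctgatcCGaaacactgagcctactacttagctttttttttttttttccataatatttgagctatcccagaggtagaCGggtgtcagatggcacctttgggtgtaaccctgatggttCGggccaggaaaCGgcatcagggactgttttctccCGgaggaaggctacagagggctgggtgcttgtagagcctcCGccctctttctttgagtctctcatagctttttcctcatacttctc
Itgax: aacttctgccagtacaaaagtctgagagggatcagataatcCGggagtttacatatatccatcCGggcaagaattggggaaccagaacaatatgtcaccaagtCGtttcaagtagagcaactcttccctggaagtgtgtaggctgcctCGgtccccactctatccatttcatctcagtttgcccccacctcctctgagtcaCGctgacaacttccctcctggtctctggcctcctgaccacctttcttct
Itgb7: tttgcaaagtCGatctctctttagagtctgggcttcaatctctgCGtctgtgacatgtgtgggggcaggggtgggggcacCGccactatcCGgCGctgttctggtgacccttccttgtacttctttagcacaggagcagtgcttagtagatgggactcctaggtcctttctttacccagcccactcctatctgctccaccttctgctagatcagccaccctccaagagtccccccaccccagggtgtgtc
Itgb5: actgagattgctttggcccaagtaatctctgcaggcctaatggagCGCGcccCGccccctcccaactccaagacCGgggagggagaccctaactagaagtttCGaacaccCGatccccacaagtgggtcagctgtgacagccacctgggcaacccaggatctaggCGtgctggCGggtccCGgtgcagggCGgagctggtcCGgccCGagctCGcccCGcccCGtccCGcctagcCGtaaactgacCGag
Lamb1: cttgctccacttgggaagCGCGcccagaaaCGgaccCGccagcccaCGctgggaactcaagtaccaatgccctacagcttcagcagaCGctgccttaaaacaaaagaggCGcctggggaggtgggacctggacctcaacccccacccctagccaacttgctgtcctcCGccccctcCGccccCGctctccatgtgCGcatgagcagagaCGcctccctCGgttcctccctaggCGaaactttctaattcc
The window of Itgam held 6 CG and that of Itgax 5, that of Itgb7 5, that of Itgb5 18 and that of Lamb1 14. Other genes with ratios between 1.01 and 1.14 held as few, with 6 for Itga4, 3 for Lamb2 and 0 for Lama2. The promoter table had no entry for Itgad or Itgb2, which were also higher. A link between CG count and ratio was not tested. The promoter table matched 24 of the 38 genes with 27 entries. Over 5 leukocyte integrin promoters the CG count ranged from 1 to 6, over 16 matrix-binding integrin promoters from 2 to 22 with a median of 11.5, and over 6 laminin promoters from 0 to 19 with a median of 3. The median over all 32851 promoters of the table was 6. GAGGAA, a core of sites for the myeloid factor PU.1, was searched on both strands. It occurred in Itgam 84 bases before the start, and as TTCCTC 15 bases before it. Lamb1 had TTCCTC 29 bases before its start, and Itgax, Itgb7 and Itgb5 held no match. The letters occurred in 14 of the 27 entries and in 23.3% of all promoters of the table. No DNA methylation or factor binding was measured here.

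Of 6 tested leukocyte integrins, 4 were higher in the knockout library and none lower. They were Itgb2 and 3 of its 4 alpha partners, Itgam, Itgax and Itgad. Itgad and Itgax reached 1 FPKM only in the knockout library, so they could hardly be counted as lower. Among the 4 with 1 FPKM in both libraries, Itgb2 and Itgam were higher. No matrix-binding integrin and no laminin chain was higher or lower by the same rule. Among the 11746 genes that reached 1 FPKM in a library, 4.35% were higher and 3.42% lower by this rule, and at 2-fold 0.902% were higher and 0.673% lower. At 2-fold, Itgad was the integrin or laminin gene counted. With counts per library size (CPM) in place of FPKM, the scarce genes Itga8, Itga9 and Itgb3 were also higher. By that measure 831 of all 12972 tested genes were higher.

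**Figure D1:**
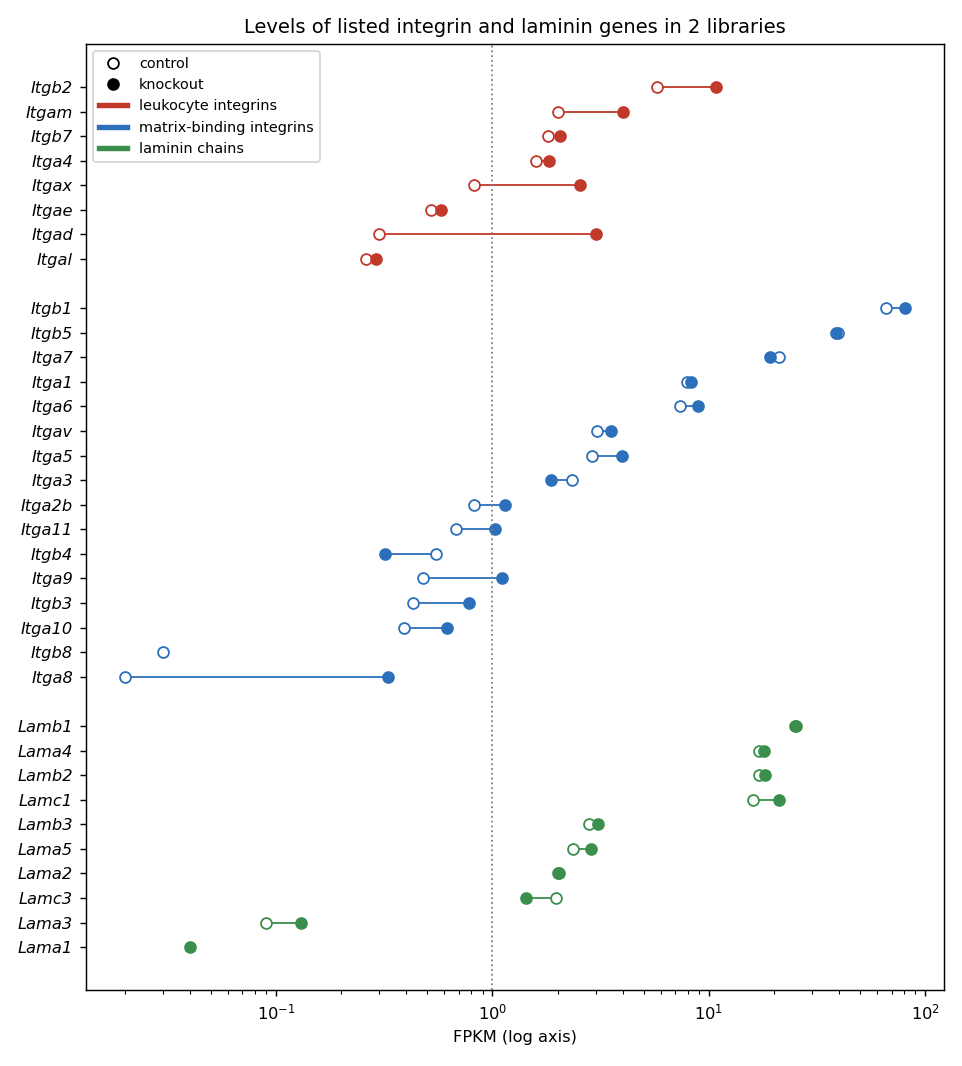
FPKM on a log axis of 34 listed integrin and laminin genes in the control (open) and knockout library (filled), 1 library each, coloured by class, with a dotted line at 1 FPKM. Levels of 0 are not drawn (Lama1 in the control, Itgb8 in the knockout). The widest gaps among genes above 1 FPKM are those of Itgad, from 0.3 to 3 FPKM, and Itgax, from 0.82 to 2.55 FPKM.

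Itgb2 was at 5.73 and 10.83 FPKM, from 156 and 307 counts. Its ratio was 1.89 (1.55 to 2.31). Itgam, the alpha subunit of complement receptor 3 on macrophages, monocytes and neutrophils, was at 2.01 and 4 FPKM. Its ratio was 1.99 (1.54 to 2.59), and relative to Itgb2 it was 1.06 (0.760 to 1.47), so a difference between the pair was not detectable at this depth. Itgax, the CD11c subunit of dendritic cells and of some macrophages, was at 0.82 and 2.55 FPKM, with a ratio of 3.11 (2.04 to 4.71). Itgad, the CD11d subunit known from tissue macrophages such as those of the spleen, stood at 0.3 and 3 FPKM. The levels come from 11.26 and 118.62 counts, and the ratio was 10 (5.60 to 21.4). On the log2 scale of FPKM + 1 its difference of 1.62 ranked 8 from the top among the 11746 genes.

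Counts of Itgad and Itgax are not whole, because reads from their common sequence were divided between them. The sum of the 2 genes was whole in each library, 43 counts in the control and 221 in the knockout. The summed ratio of 4.93 (3.55 to 7.01) does not depend on how reads were divided between them. Relative to Itgb2 the ratio of the sum was 2.61 (1.77 to 3.91), and relative to Itgam 2.47 (1.61 to 3.83). Taken as deposited, Itgad alone exceeded the ratio of Itgb2 by 5.48 (2.85 to 11.6) and Itgax by 1.62 (1.03 to 2.61). In the RefSeq gene order Itgam, Itgax and Itgad follow each other with no other protein-coding gene between them. The model of Itgad overlaps that of its next neighbour Cox6a2, which had 1 count in each library.

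The remaining leukocyte integrins had ratios from 1.12 to 1.14. Itgal, the LFA-1 subunit that is prominent on lymphocytes, was at 0.26 and 0.29 FPKM from 13 and 15 counts, with a ratio of 1.12 (0.492 to 2.53). Itgb7 was at 1.8 and 2.06 FPKM, with a ratio of 1.14 (0.762 to 1.74), and relative to Itgb2 it was 0.608 (0.384 to 0.965). Itga4, which binds VCAM1 and fibronectin, was at 1.59 and 1.82 FPKM, with a ratio of 1.14 (0.917 to 1.43). Relative to Itgb2 it was 0.606 (0.449 to 0.818). Itgae, the CD103 subunit of lymphocytes and dendritic cells that binds E-cadherin, was at 0.52 and 0.58 FPKM, with a ratio of 1.12 (0.575 to 2.17). For Itgal and Itgae the interval also includes a difference as large as that of Itgb2.

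The makeup of the beta 2 family shifted with these values. The 4 alpha partners summed to 3.39 and 9.84 FPKM, beside 5.73 and 10.83 FPKM of Itgb2. Itgam had 59.3% of the control alpha sum and 40.7% of the knockout one. Itgad had 8.85% and 30.5%, Itgax 24.2% and 25.9%, and Itgal 7.67% and 2.95%. The order of alpha levels was Itgam, Itgax, Itgad, Itgal in the control and Itgam, Itgad, Itgax, Itgal in the knockout library. The places of Itgad and Itgax depend on how their common reads were divided.

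**Figure D2:**
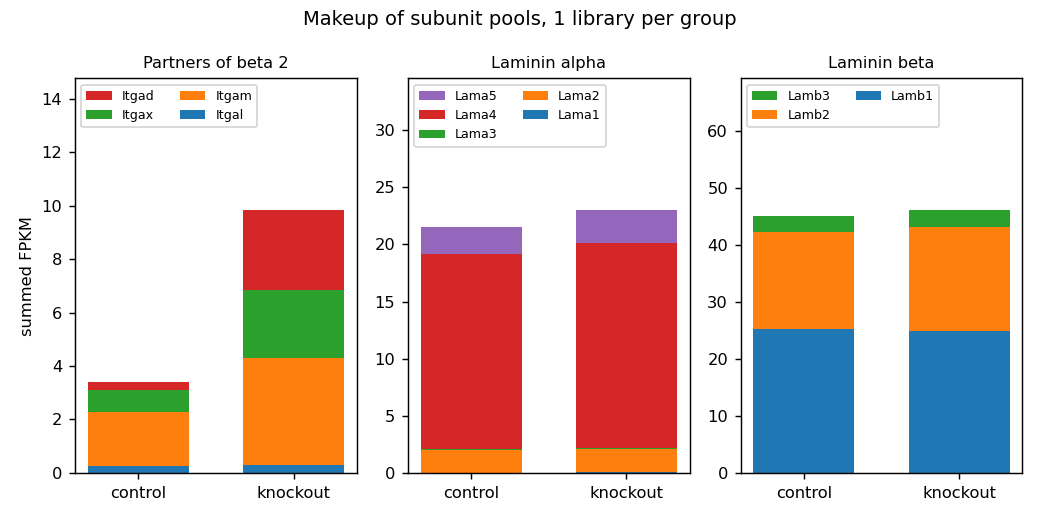
Stacked FPKM of the alpha subunits that pair with beta 2 and of the laminin alpha and beta chains in the control and knockout library, each panel with its own linear axis from 0. The beta 2 partners sum to 3.39 and 9.84 FPKM, while the laminin alpha chains sum to 21.52 and 23.02 FPKM with Lama4 as the main chain in both.

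General leukocyte and macrophage markers were mostly higher, as were the beta 2 integrins. Lymphocyte markers were nearly all too low for the rule to count. In bulk tissue, more cells of a type and more RNA per cell cannot be told apart. All 3 general leukocyte markers had ratios above 1, and their summed level was 21.78 and 34.39 FPKM. Ptprc, the CD45 gene, had a ratio of 2.41 (1.85 to 3.17) and Coro1a 1.58 (1.28 to 1.95). All 8 macrophage markers had ratios above 1, from 1.452 for Fcgr1 to 2.57 for Mertk. By the rule 6 of 8 were higher, against 4.35% of all tested genes. The macrophage markers summed to 232 and 375.5 FPKM, most of it Lyz2, whose counts are in part divided with other genes. Besides Mertk, an efferocytosis receptor, the macrophage genes Cd68, Mrc1 and Cd163 had ratios of 1.97 (1.54 to 2.53), 1.76 (1.52 to 2.04) and 1.94 (1.499 to 2.51). Itgb2 relative to Ptprc was 0.782 (0.556 to 1.09), and relative to the macrophage receptor Adgre1 1.25 (0.953 to 1.64). Itgb2 was therefore not detectably apart from either. Itgad was apart from each marker it was compared with. It was 4.28 (2.16 to 9.29) relative to Ptprc and 6.84 (3.57 to 14.4) relative to Adgre1. Summed with Itgax, to avoid the division of reads, it was 2.04 (1.32 to 3.18) relative to Ptprc, 3.25 (2.22 to 4.84) relative to Adgre1 and 1.92 (1.17 to 3.16) relative to Mertk.

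T, B and NK cell markers were low. Only Gzma of the NK cell list reached 1 FPKM in a library, with a ratio of 0.531 (0.140 to 1.77). The others were below the minimum, so the rule could count none of them as higher or lower. T cell markers summed to 2.57 and 1.41 FPKM with all 6 below 1 FPKM. Cd3e had 6 control counts and was not listed in the knockout, with an interval of 0 to 0.815. B cell markers summed to 1.77 and 1.42 FPKM, and NK cell markers to 1.35 and 0.6 FPKM with Klrb1c and Eomes listed in neither. Dendritic cell markers summed to 4.88 and 4.91 FPKM. Of these, Cd209a was lower, from 1.59 down to 0.49 FPKM, with a ratio of 0.308 (0.110 to 0.740). It reached 1 FPKM only in the control, so it could hardly be counted as higher. Zbtb46, Xcr1 and Clec9a had ratios of 1.198 (0.839 to 1.72), 1.96 (0.940 to 4.56) and 2.2 (0.866 to 6.27). Flt3 was not listed in the control and had 1 knockout count. Neutrophil markers summed to 5.67 and 13.3 FPKM. S100a8 was higher with a ratio of 2.44 (1.25 to 5.05), while Ly6g was listed in neither library. The part of any of these cell types in the integrin values was not tested.

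**Figure D3:**
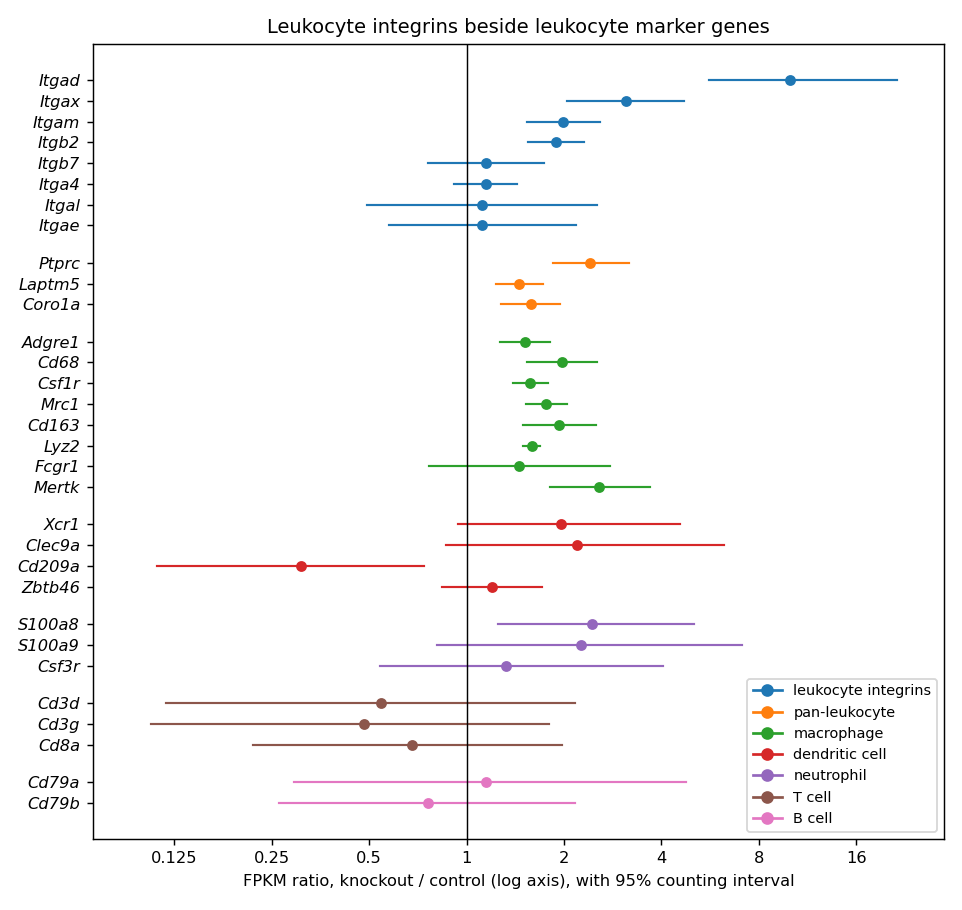
Knockout to control ratio of FPKM (log axis) with 95% counting intervals for leukocyte integrins and for leukocyte marker genes that have a level in both libraries and at least 10 counts over both. Itgad at 10 lies to the right of every marker drawn, and the macrophage markers lie between 1.452 and 2.57.

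The ligands and activators of leukocyte integrins gave a mixed picture. Of 11 cell-surface ligands 7 reached 1 FPKM, and none was higher or lower. Of the 7, 3 had a log2 ratio above 0 and 4 below. The most abundant were F11r, a junction protein bound by LFA-1, at 37.68 and 33.96 FPKM, and Icam2, an endothelial ligand of beta 2 integrins, at 16.5 and 13.19 FPKM. Among 29 tested genes of the integrin adhesion machinery, which links beta tails to actin, 5 were higher and none lower. Their median log2 ratio was 0.22. Over all tested genes 4.35% were higher and 3.42% lower, with a median of -0.03. Apbb1ip, the adaptor RIAM that brings talin to integrins in leukocytes, was at 1.41 and 3.15 FPKM, with a ratio of 2.23 (1.47 to 3.44). The actin crosslinker Actn1 had a ratio of 1.83 (1.44 to 2.33), vinculin (Vcl) 1.64 (1.4999 to 1.79) and the parvin Parvb 1.77 (1.39 to 2.26). Filamin A (Flna), the fifth, had 1.62 (1.4995 to 1.75). Fermt3, the kindlin of blood cells, was chosen after its value was seen. It was at 1.59 and 2.66 FPKM, with a ratio of 1.67 (1.11 to 2.55), and the pseudocount kept it under the 1.5-fold limit. Its widely expressed relative Fermt2 was at 48.99 and 54.58 FPKM.

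Matrix-binding integrins made up most of the integrin message in both libraries. Itgb1, the common beta subunit, was the most abundant member at 66.09 and 80.9 FPKM, with a ratio of 1.22 (1.16 to 1.29). Itgb5, a partner of alpha v that binds vitronectin, followed at 39.58 and 38.53 FPKM, with a ratio of 0.973 (0.899 to 1.05). Relative to Itgb5, Itgb1 was 1.26 (1.14 to 1.38). Over the 9 beta genes Itgb1 had 57.9% and 60.6% of the summed FPKM, Itgb5 34.7% and 28.9%, and Itgb2 5.02% and 8.12%.

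Among laminin receptors, Itga7 led with 20.98 and 19.13 FPKM, with a ratio of 0.912 (0.825 to 1.01). It encodes the alpha subunit known from muscle. Itga6 was at 7.33 and 8.95 FPKM, with a ratio of 1.22 (1.05 to 1.43). Itga3 was at 2.33 and 1.87 FPKM, with a ratio of 0.803 (0.600 to 1.07). Itgb4, which joins alpha 6 in the hemidesmosomes of epithelia, was at 0.55 and 0.32 FPKM from 32 and 20 counts, with a ratio of 0.582 (0.317 to 1.06). The epithelial keratin genes Krt14 and Krt5 were both lower, with ratios of 0.425 (0.334 to 0.533) and 0.584 (0.443 to 0.771). Both had counts divided with other genes, and the other 3 markers of the epithelial and mesothelial list, Epcam among them, were listed in neither library. Their part in the Itgb4 value was not tested.

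Among collagen receptors, Itga1 was at 7.96 and 8.3 FPKM, with a ratio of 1.04 (0.916 to 1.19). Itga11, a receptor of fibroblasts for fibrillar collagen, was at 0.68 and 1.03 FPKM, with a ratio of 1.51 (0.965 to 2.46). Itga10, known from cartilage, was at 0.39 and 0.62 FPKM, with a ratio of 1.59 (0.857 to 2.93). Itga1 was thus level, and for the scarcer pair the intervals include both no difference and more than a doubling.

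Receptors for fibronectin and related ligands ranged more widely. Itga5, the main fibronectin receptor subunit, was at 2.87 and 3.99 FPKM, with a ratio of 1.39 (1.10 to 1.77). Its ligand Fn1 was at 7.66 and 22.68 FPKM, and relative to Fn1 the receptor was 0.472 (0.365 to 0.612). Itgav was at 3.03 and 3.52 FPKM, with a ratio of 1.16 (0.961 to 1.40). Itga9, which binds tenascin and osteopontin, was at 0.48 and 1.11 FPKM from 30 and 78 counts, with a ratio of 2.31 (1.49 to 3.64). It stayed below the 1.5-fold limit because of the pseudocount of 1 FPKM, with a log2 ratio of 0.51, and was counted as higher with a pseudocount of 0.1. Relative to Itgb1, its partner, it was 2.04 (1.32 to 3.23). Itga8, a receptor of smooth muscle and mesenchymal cells for nephronectin, had 1 count in the control and 19 in the knockout, with a ratio of 16.5 (2.90 to 758). Its knockout level was 0.33 FPKM, below the minimum for the rule. Itgb8 had 1 count in the control and none in the knockout library, so no ratio is given.

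The platelet receptor genes Itga2b and Itgb3 were at 0.82 and 1.14 FPKM and at 0.43 and 0.78 FPKM. Their ratios were 1.39 (0.828 to 2.36) and 1.81 (1.07 to 3.09). Itgb3 also pairs with alpha v on other cells. Platelet markers summed to 25.47 and 41.63 FPKM, nearly all of it Pf4, with a ratio of 1.61 (1.29 to 2.003). The platelet gene Gp6 was listed in neither library. Gp9 and Gp1bb had 2 and 6.13 counts in the knockout library, without a value in the control. Ppbp had 2 and 10 counts, while Gp1ba went the other way with 14 and 10 counts and a ratio of 0.685 (0.273 to 1.66). Macrophages can express Pf4 as well, and the part of platelets was not tested.

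**Figure D4:**
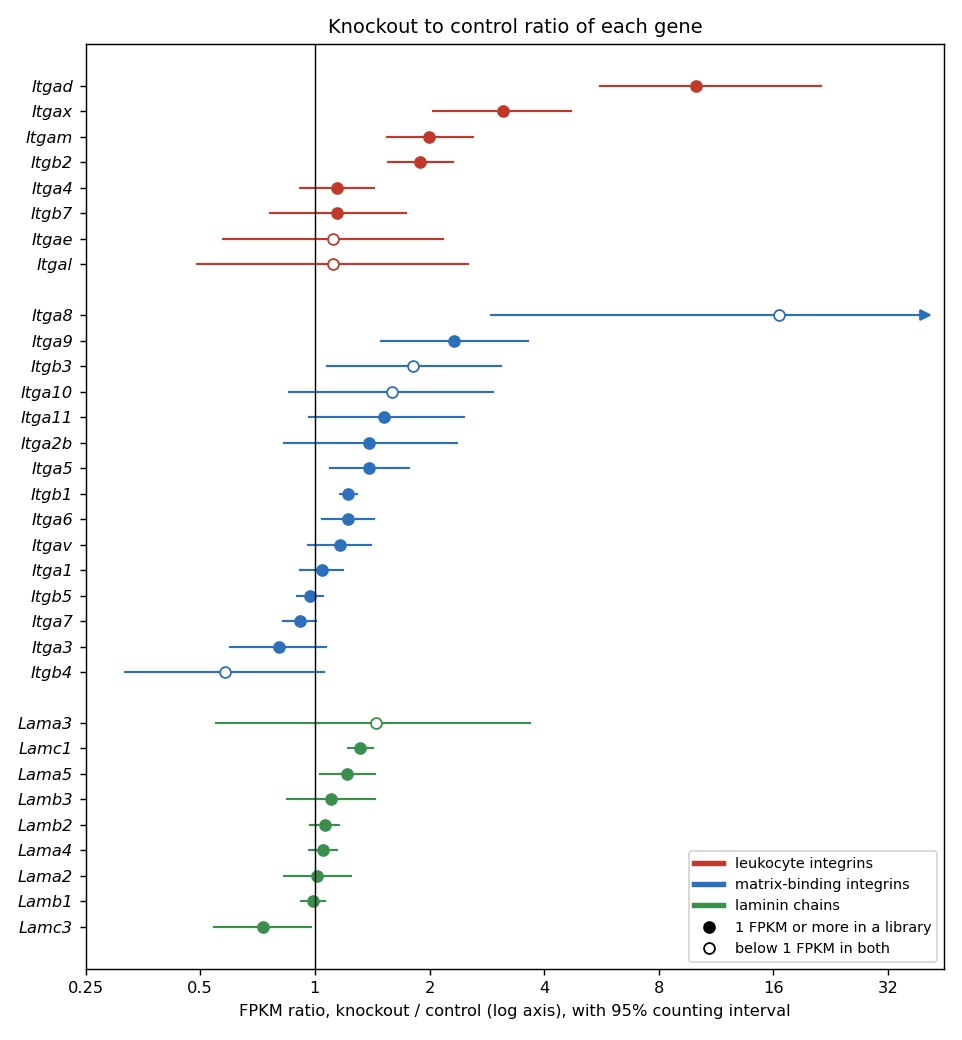
Knockout to control ratio of FPKM (log axis) with 95% counting intervals for 32 genes with a level in both libraries, by class, filled where a library reached 1 FPKM. The intervals of Itgad, Itgax, Itgam, Itgb2 and Itga8 lie above 1.5, that of Itga8 running beyond the axis to 758. Lama4, Lamb1 and Lamb2 lie near 1 and Lamc1 at 1.32.

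No laminin chain passed the 1.5-fold rule. The alpha chain of highest level was Lama4, typical of vessels and of fat, at 17.08 and 17.96 FPKM, with a ratio of 1.05 (0.963 to 1.15). Lama5 was at 2.35 and 2.86 FPKM, with a ratio of 1.22 (1.03 to 1.44). Lama2, the chain of muscle and nerve, was at 2 and 2.03 FPKM, with a ratio of 1.01 (0.828 to 1.25). Lama4 had 79.4% and 78.0% of the summed alpha FPKM, Lama5 10.9% and 12.4%, and Lama2 9.29% and 8.82%. Each of these shares differed by less than 2 percentage points between the libraries. Lama3, the alpha chain of epithelial laminin, had 9 and 13 counts, and Lama1, an embryonic chain, was unlisted in the control and had 4 knockout counts.

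Of the beta chains, Lamb1 was at 25.24 and 24.98 FPKM, with a ratio of 0.990 (0.918 to 1.07), and Lamb2 at 17.04 and 18.08 FPKM, with a ratio of 1.06 (0.969 to 1.16). Lamb3, a chain of epithelial laminin, was at 2.78 and 3.07 FPKM, with a ratio of 1.10 (0.845 to 1.44). The intervals of Lamb1 and Lamb2 together span 0.918 to 1.16.

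Lamc1 and Lamc3 differed from each other. Lamc1, the gamma chain of most laminins, was at 16.01 and 21.07 FPKM from 1176 and 1611 counts, with a ratio of 1.32 (1.22 to 1.42). It was under the 1.5-fold limit, but relative to its trimer partners it was 1.33 (1.196 to 1.48) against Lamb1, 1.24 (1.10 to 1.40) against Lamb2 and 1.25 (1.11 to 1.40) against Lama4. Lamc3 was lower, at 1.96 and 1.43 FPKM, with a ratio of 0.730 (0.543 to 0.975), also within the 1.5-fold limit. Relative to Lamc1 it was 0.554 (0.409 to 0.749).

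Other basement membrane genes did not all move like the laminins. Of 13 tested partners 4 were higher and none lower, with a median log2 ratio of 0.30. Over all tested genes 4.35% were higher and 3.42% lower, with a median of -0.03. Nid1 and Nid2, the nidogens that join laminin to collagen IV, were at 24.67 and 42.05 FPKM and at 3.59 and 6.28 FPKM. Their ratios were 1.70 (1.60 to 1.82) and 1.75 (1.45 to 2.12), and Lamc1, the chain that nidogen binds, was 0.772 (0.698 to 0.853) relative to Nid1. The collagens Col15a1 and Col18a1 had ratios of 1.78 (1.64 to 1.93) and 1.94 (1.72 to 2.19). The collagen IV chain Col4a1, chosen after its value was seen, had 1.24 (1.19 to 1.29), and Lamc1 relative to it was 1.06 (0.975 to 1.16). Perlecan (Hspg2), chosen in the same way, had 1.04 (0.996 to 1.09). Among 19 tested matrix ligands of integrins 8 were higher and 2 lower, with a median of 0.43. Besides Fn1, with a ratio of 2.96 (2.69 to 3.25), these included Ccn2, a matrix-bound growth regulator, with 3.36 (2.66 to 4.27), and fibrillin (Fbn1) with 1.83 (1.64 to 2.03). Lower were Fgg, a fibrinogen chain, at 1.25 and 0.13 FPKM, and vitronectin (Vtn), at 7.43 and 4.35 FPKM. Of the 19 ligands, 2 reached 1 FPKM only in the knockout library and Fgg only in the control. Calls of such genes could hardly go the other way.

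Markers of the cells that make and use these matrix genes moved in both directions. The 8 endothelial markers summed to 244.5 and 166.5 FPKM, 7 of them with a ratio below 1. By the rule 4 were lower, against 3.42% of all tested genes. The 4 were Cldn5 with 0.495 (0.444 to 0.551), Emcn with 0.558 (0.466 to 0.665), Kdr with 0.639 (0.584 to 0.698) and Tie1 with 0.638 (0.571 to 0.711). All 6 fibroblast markers had ratios above 1, summing to 308 and 484 FPKM. By the rule 3 were higher, against 4.35% of all tested genes. These were Dpt at 2.22 (2.07 to 2.37), Col1a1 at 1.72 (1.59 to 1.87) and Col3a1 at 1.51 (1.45 to 1.57). Col1a1 and Col3a1 are also among the higher matrix ligands above. The remaining fibroblast markers had ratios from 1.15 to 1.27. Of 7 smooth muscle and pericyte markers, 5 were above 1 and 2 below, summing to 145 and 158 FPKM, and Acta2 had 2.10 (1.81 to 2.43). Skeletal muscle markers summed to 2.46 and 3.01 FPKM, most of it Acta1 at 1.38 and 2.71 FPKM, with Ckm listed in neither library. The other 5 listed muscle markers went the other way, each from at most 5 control counts, and Myh1, Myh4 and Tnnt3 were not listed in the knockout. Schwann cell markers summed to 217.7 FPKM in both libraries, almost all S100b. Erythroid markers, led by Hbb-bs and Hba-a1, had 0.980 of their control sum, and brown adipocyte markers 0.864, with Dio2 lower at 0.620 (0.570 to 0.673). The part of these cells in the laminin and integrin values was not tested.

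Set against each other, the class sums differed, though not every leukocyte integrin took part. Leukocyte integrins had 518 summed counts (control) and 987 (knockout), a ratio per library size of 1.83 (1.64 to 2.04). Matrix-binding integrins had 6066 and 7085, with a ratio of 1.12 (1.08 to 1.16), and laminin chains 5179 and 5937, with a ratio of 1.10 (1.06 to 1.14). The ratio of leukocyte integrins divided by that of matrix-binding integrins was 1.63 (1.46 to 1.83), and divided by that of laminin chains 1.66 (1.48 to 1.86). Without Itgad and Itgax these values were 1.38 (1.22 to 1.56) and 1.41 (1.25 to 1.59), with the higher genes Itgb2 and Itgam still in the sum. Itga4, Itgb7, Itgae and Itgal had ratios from 1.12 to 1.14, close to those of the matrix-binding and laminin sums. Matrix-binding integrins relative to laminin chains were 1.02 (0.968 to 1.07). Itgb1 alone gave 2654 of the 6066 control counts, and the matrix-binding sum without it had a ratio of 1.04 (0.994 to 1.09).

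Gene by gene, the median log2 ratio of FPKM + 1 was 0.77 over the 6 tested leukocyte integrins, 0.23 over the 11 tested matrix-binding integrins and 0.07 over the 8 tested laminin chains, beside -0.03 over all tested genes. Of the 25 tested members, 5 reached 1 FPKM only in the knockout library (Itgad, Itgax, Itga2b, Itga9 and Itga11) and none only in the control, and such genes could hardly be lower. Over the 20 members with 1 FPKM in both libraries the medians were 0.43 for 4 leukocyte integrins, 0.11 for 8 matrix-binding integrins and 0.07 for the laminin chains. Over all 35 listed members with no minimum they were 0.43, 0.23 and 0.07, with the same 4 genes higher, against 3.33% higher and 2.72% lower of all 16174 genes. All 8 listed leukocyte integrins had a log2 ratio above 0, as did 11 of 16 matrix-binding integrins and 9 of 11 laminin chains, against 7639 of 16174 genes. Members near 0 changed sign with the scaling: Lama2 was below 0 after adjustment for length, and Lamb1 and Itgb5 were above 0 at equal FPKM totals.

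**Figure D5:**
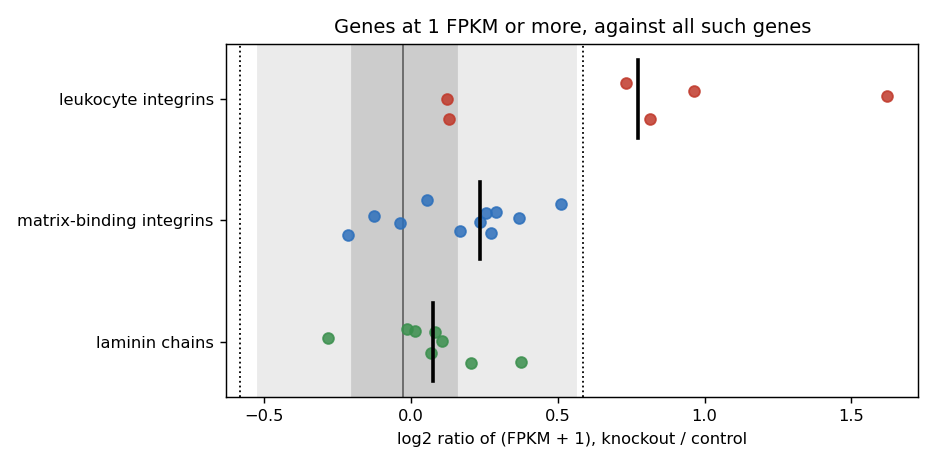
Log2 ratio of FPKM + 1, knockout over control, for the 25 integrin and laminin genes that reached 1 FPKM in a library, with a bar at each class median. Grey bands hold the middle 50% (dark) and 90% (light) of all 11746 such genes, and dotted lines mark 1.5-fold. Only leukocyte integrins, 4 of 6, lie beyond the dotted lines, at 0.73 to 1.62.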

How the data were processed

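RNA from brown adipose tissue was frozen, extracted, treated with DNase, selected for poly(A) and sequenced, per the labels' protocols. Strand is not mentioned, so it is not known whether reads of overlapping genes were separated. For each gene the authors deposited an FPKM value and an expected count, per the file headers. RSEM and the build mm9 are named in the submitters' processing notes. No aligner is named in the labels or file headers. An expected count deposited by the authors divides reads that match several genes, so it need not be whole.

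Symbols came from the RefSeq table of GRCm38.p6, with 16134 of 16174 genes matched. That build differs from mm9, so it gave names, gene order and promoter sequence only. Of the 27 promoter entries, 25 continued into a GENCODE transcript at the stated start. A gene not listed was set to 0. Ratios are FPKM ratios. Their intervals are Clopper-Pearson intervals of the knockout share of the rounded counts, scaled by library totals and lengths. They cover counting error only, and reads copied by PCR are not independent molecules. Ratios between genes or summed classes are conditional odds ratios (scipy 1.17.1). An unlisted gene could still have up to 3 counts, which is 0.310 CPM (control) or 0.298 CPM (knockout). The interval and the rule of size were tested on simulated data.

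The members, lists and thresholds were chosen with earlier results of these data known. Of the members 1 is not reported here. Named were the other members, Dnmt3b, Ucp1 and, of each partner and marker list, up to 4 genes past the rule by absolute log2 ratio, else the 2 most abundant. Also named, with their values known, were Fermt2, Flna, Adgre1, Fcgr1, Lyz2, Vtn, Zbtb46, Xcr1, Clec9a, Cox6a2, Gp1ba and Ppbp. The same holds for markers without a value in a library and those so described. Itga4 was placed with leukocyte integrins. Alternatives were other pseudocounts, filters, folds and scalings, length and GC adjustment, and other treatment of shared counts.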

Additional observations from a re-analysis of the deposited data

How the results depend on the processing

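No paired analysis was possible because each group has 1 library. For the 25 members tested as deposited, 331 values over 15 alternatives held no reversed call, 6 lost calls and 2 gained ones, both of Itga9. Itgad was counted as higher in every alternative in which it was tested. The others were not counted at 2-fold or with a pseudocount of 5 FPKM, where Itgam had a log2 ratio of 0.36, Itgax 0.38 and Itgb2 0.56. Higher leukocyte integrins numbered 1 in both, 1 of 1 tested at a mean of at least 5 FPKM, and 2 of 4 when genes with shared counts were left out. Their median was 0.93 with a pseudocount of 0.1, 0.37 with 5, 0.43 with no filter, 0.53 with CPM and 0.43 without shared genes. Matrix-binding integrins had 1 higher gene with a pseudocount of 0.1 (Itga9) and 3 with CPM (Itga8, Itga9 and Itgb3), and a median of 0.085 with a pseudocount of 5 and 0.054 at a mean of at least 5 FPKM. Laminin chains had 1 higher gene with CPM. Over all 11746 tested genes, higher and lower counts were 749 and 620 with a pseudocount of 0.1, and 136 and 107 with 5. They were 221 and 191 of 7534 at a mean of at least 5 FPKM, and 106 and 79 of 11746 at 2-fold. With CPM they were 831 and 677 of 12972. Rescaled to the same FPKM total, 678 were higher and 298 lower, and without the 20 most abundant genes 684 and 297, against 511 and 402 as deposited.

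Median log2 ratios rose with transcript length, from -0.16 in the shortest 1175 of the tested genes to 0.05 in the longest 1175, and laminin and integrin transcripts are long. With the median of genes of like length subtracted, or of like GC content (an alternative chosen after seeing the data, as was summing Itgad and Itgax), the counts of higher and lower members were as deposited. The sign of Itgb5, Lamb1 and Lama2 depended on the scaling.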
